A study of Mus musculus with 2 samples.

Results

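The regions described here are the 250 bp bins of chromosomes 1 to 19 in which the input library, chromatin DNA that was sequenced without an antibody, held at least 10 times its mean. They were 3576 of the 9506800 bins in the occupied 10 kb blocks of these chromosomes, or 0.0376% of the bins, and they held 0.700% of the input tags placed on these chromosomes. A tag is an aligned read, counted at the position and strand given in the deposited files and moved by 50 bp toward its 3' side. The mean was 1.0032 input tags per bin, so that the limit was 10.03 tags and the lowest bin chosen held 11.

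The libraries came from V6.5 embryonic stem cells (ESCs), a mouse line derived from a cross of C57BL/6 and 129/sv, for which the labels give the strain C57BL/6. The cells had been grown on inactivated mouse embryonic fibroblasts and were then passaged without feeder cells on gelatin, with no treatment. 1 ChIP library was made with an antibody specific for KDM2A and 1 input library with no antibody, both after 18 PCR cycles. With 1 library of each kind there is no replicate, so no test was made between them, and every interval below covers counting error only. The totals were 10042076 KDM2A tags, at 9564671 positions, and 9760426 input tags, at 7764852 positions. Input was multiplied by 1.0289, the ratio of these totals, before the ratio of KDM2A to input was taken.

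KDM2A is a histone H3 lysine 36 demethylase whose ZF-CxxC domain binds nonmethylated CpG dinucleotides, which are frequent in CpG islands and scarce or methylated in most of the mouse genome. Satellite DNA at centromeres, arrays of ribosomal RNA genes, recent segmental duplications and mitochondrial DNA are examples of sequence that cells hold in many copies. Parts of the mitochondrial sequence are also found in the nuclear chromosomes. Where a genome assembly holds fewer copies than the cells do, reads from all copies can be placed on the few that are assembled, and the input of a ChIP experiment is then high there. No sequence of the build of these files was analysed here, so neither the copy number of the bins nor what kind of sequence they hold was measured, and the regions are named by their coordinates in mm9 alone.

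Because the bins were chosen by their input tags, their input level and any ratio with input in the denominator are a description of the choice. Their input level averaged 18.6 times the mean, with a median of 12 tags. Most lay close to the limit. Just inside it, 1608 bins held 11 input tags and 794 held 12. Just outside it, 3625 bins held 10 input tags and were left out. KDM2A tags averaged 3.38 in the bins of 11 input tags and 2.60 in those of 10. The number of bins fell steadily across the limit, which thus cuts a continuous distribution of input tags. In the plot of bins by input tags, the steep fall goes on past the limit and flattens only above about 16 tags, so that 3050 of the 3576 bins, those of 11 to 16 tags, lie in the steep part.

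**Figure D1:**
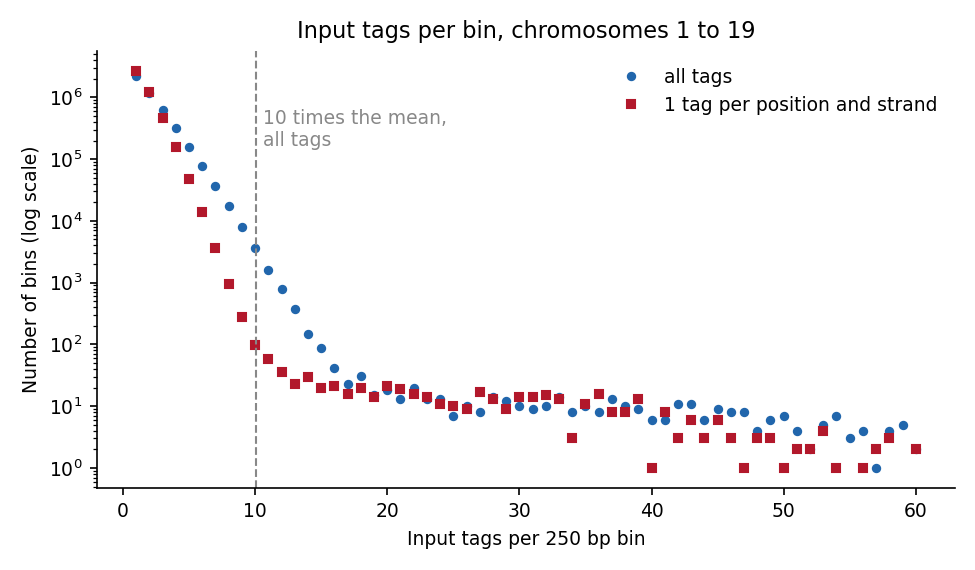
Number of 250 bp bins (vertical axis, log scale) that held a given number of input tags (horizontal axis), with all tags counted (circles) and with 1 tag counted per position and strand (squares). The dashed line marks the limit of 10.03 tags, bins with more than 60 tags are not drawn, and the steep part falls earlier with 1 tag per position and strand. From 41 to 60 tags there were 113 bins with all tags and 54 in the other count.

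The bins were counted again with repeated tags at a position left out. With 1 tag counted per position and strand in both libraries and the mean taken again, 1933 bins reached 10 times the mean. Of these, 1350 were also chosen with all tags, which is 37.8% of the bins chosen with all tags and 69.8% of those chosen with 1 tag. Of the 3137 bins at 10 to under 20 times the mean, 29.0% were kept. The 293 bins at 20 to under 50 times the mean and the 146 bins at 50 times or more were all kept, which bins this far above the limit could hardly fail to be. Tags beyond the first at a position and strand made up 43.7% of the input tags and 26.9% of the KDM2A tags in the chosen bins, compared with 20.3% and 4.68% in the other bins. By input level, in the same order, they made up 43.1%, 27.3% and 53.3% of the input tags and 10.4%, 20.2% and 44.0% of the KDM2A tags. A bin can pass the input limit through such copies, and their part in the choice of the bins near the limit was not tested beyond this count.

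Adjacent bins were joined into runs. There were 3129 runs, of which 3027 (96.7%) were of 1 bin. The single bins held 56.2% of the input tags of all chosen bins, and 814 of them (26.9%) were kept with 1 tag per position and strand. The 102 runs of 2 bins or more included 68 of 2 to 4 bins, 21 of 5 to 9 bins and 13 of 10 bins or more, and each of the 102 held a bin that was kept. The 13 longest lay on 3 chromosomes and together held 251 bins. Runs of 5 bins or more were thus 1.09% of the runs but held 30.3% of the input tags of the chosen bins.

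Runs less than 10 kb apart were joined further into groups. Of the 2825 groups, 2673 were of 1 run and 12 held 5 runs or more. The 15 groups with the most input tags held 14.1% of the bins and 43.1% of the input tags of all chosen bins, and the first 3 alone held 31.0%. The largest group by tags lay at the start of chromosome 11, the next at the start of chromosome 9, and the third on chromosome 2 far from its ends.

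By chromosome, the number of chosen bins ranged from 78 to 560, with a median of 136, which is 1.67 to 11.8 per 10000 bins with a median of 2.83. Chromosomes 11 and 8 stood above the rest, with 560 and 515 bins. They differed in how these bins were arranged. On chromosome 11, 270 of the 560 bins lay in the 100 kb that follow its first tag. On chromosome 8, 493 of the 515 bins were runs of 1 bin and none lay in its first 100 kb. The input level of all bins on these chromosomes was 1.36 times the autosomal mean for chromosome 8 and 1.31 times for chromosome 11. When each chromosome was measured against its own mean, an alternative chosen after the data were seen, 59 bins of chromosome 8 and 284 bins of chromosome 11 reached 10 times that mean.

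**Figure D2:**
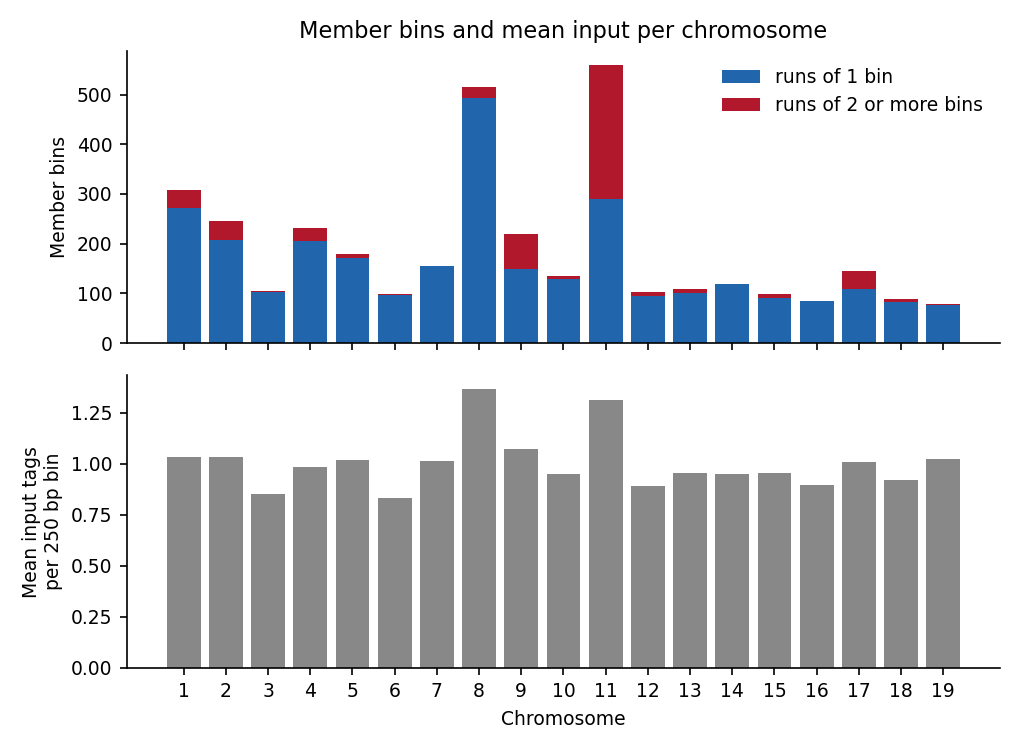
Chosen bins per chromosome (upper bars, divided into runs of 1 bin and runs of 2 or more bins) and mean input tags per 250 bp bin of the whole chromosome (lower bars). Chromosomes 8 and 11 have the most chosen bins, 515 and 560, and the highest mean input, and the bins of chromosome 8 are nearly all runs of 1 bin.

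The first 100 kb after the first tag of the chromosomes made up 0.0799% of the bins and held 372 chosen bins (10.4%). Of these, 344 were on chromosomes 9 and 11, and the other 28 were spread over further chromosomes, so that 6 chromosomes in all had any. The first 1 Mb held 406 chosen bins (11.4%) and the last 1 Mb held 38 (1.06%), each in 0.799% of the bins. In assembled mouse chromosomes, which are acrocentric, the start is the end nearest the centromere. The highest bin of each chromosome held between 16 and 921 input tags with a median of 92, and the same bins held 4 to 633 KDM2A tags with a median of 44.

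The KDM2A level was not used in the choice of the bins. It had a median of 3 tags and ranged from 0 in 495 bins to 751, the highest of all bins of these chromosomes. At least 10 times the KDM2A mean was reached by 624 of the 3576 bins (17.4%), compared with 0.727% of all bins. The share increased with the input level. It was 6.79% (213 bins) at 10 to under 20 times the input mean, 90.8% (266 bins) at 20 to under 50 times and 99.3% (145 bins) at 50 times or more. The bins with the highest input were therefore nearly all high in the KDM2A library as well.

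Over all chosen bins, the ratio of KDM2A to scaled input was 0.591 (95% Wilson interval 0.584 to 0.598), and 0.641 (0.631 to 0.651) with 1 tag counted per position and strand. In the other bins it was 1.01. Of bins with at least 11 tags of both libraries together, 66.5% had a ratio of 2 or more and 9.24% a ratio of 0.5 or less. Among the chosen bins, 74 (2.07%) had a ratio of 2 or more and 2743 (76.7%) a ratio of 0.5 or less, and since a bin enters the list through its input, nothing is read from these shares. Counted by run, 34 of 3129 (1.09%) were at 2 or more and 2624 (83.9%) at 0.5 or less.

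To read a ratio on tags that had not chosen the bins, 1 strand was used to choose and the other was read. When bins were chosen by plus-strand input alone, at 10 times its mean, 20057 bins passed. On the strand that chose them they had a ratio of 0.260, whereas on the minus strand the ratio was 0.889 (0.876 to 0.901). With the strands exchanged, 20248 bins had 0.258 on the choosing strand and 0.891 (0.879 to 0.903) on the other. The input level fell from 14.3 and 14.1 times the mean on the choosing strand to 4.04 and 4.10 times on the other. Bins chosen at 50 times the mean of a strand had ratios of 0.956 (0.927 to 0.985, 162 bins) and 0.813 (0.789 to 0.838, 145 bins) on the strand that was not used. The strands of a library are not independent, since they come from the same fragments and the same copies of a sequence. The lists chosen in this way take bins of 6 or more tags on 1 strand and are longer than the list described here. How far the choice lowers the ratio of that list was therefore not measured.

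The ratio also differed with the height and length of the runs. It was 0.323 (0.317 to 0.330) in bins at 10 to under 20 times the input mean, 1.14 (1.11 to 1.17) at 20 to under 50 times and 0.833 (0.816 to 0.850) at 50 times or more. Counted with 1 tag per position and strand, these ratios were 0.424, 1.05 and 0.834. Single bins had a ratio of 0.307 and runs of 2 to 4 bins 0.834. The choice on input favours low ratios in bins near the limit, which most single bins are. Just outside the limit, bins of 9 and 10 input tags had ratios of 0.269 and 0.253. Nothing is therefore read from the low ratios near the limit. Runs of 5 bins or more had a ratio of 1.01 (0.991 to 1.03), close to that of the whole genome, and 89.6% of their bins reached 10 times the KDM2A mean. The pooled value near 1 for long runs averaged over runs that differed greatly, from 0.252 to 4.67, with a median of 0.754. The run at chr17:39980001-39985750 alone held 5276 of the 21045 KDM2A tags and 1098 of the 20248 input tags in these runs. Several of its bins also lie at 20 to under 50 times the input mean. Without them, the KDM2A tags at that level would no longer exceed scaled input. The pooled ratio of the long runs would likewise be lower without this run. Neither pooled ratio is given here without this run.

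The bins beside the runs were not as high. Within 5 kb of a run, the other bins held on average 1.53 input tags and 2.12 KDM2A tags, a ratio of 1.35. Bins further away held 0.990 and 1.02 tags, a ratio of 1.002. Since bins at or above the limit are left out of this count, a lower level beside the runs is fixed by the choice. The mean of 1.53 input tags was still above the level further away.

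To describe single regions with enough tags, the 53 runs with at least 100 input tags were taken. They held 41.6% of the input tags of all chosen bins. Of these runs, 15 lay at the start of chromosome 9, 19 at the start of chromosome 11 and 19 elsewhere. Their ratios ranged from 0.145 to 4.67 with a median of 0.695 and quartiles of 0.603 and 0.870. With input scaled by total tags, the interval lay wholly below 1 for 39 of the 53 runs and wholly above 1 for 9. These counts depend on the scale. With input scaled by 100 kb windows, a factor of 0.787, every ratio would be higher. Fewer intervals would then lie wholly below 1 and more wholly above, while those of the 5 lowest ratios would stay below 1. The runs were not counted again with that scale. Leaving out the 5 lowest and the 5 highest, the ratios of the other 43 runs lay between 0.468 and 1.29. In the plot of both tag counts by run, most runs follow a common line and a few lie far above or below it.

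**Figure D3:**
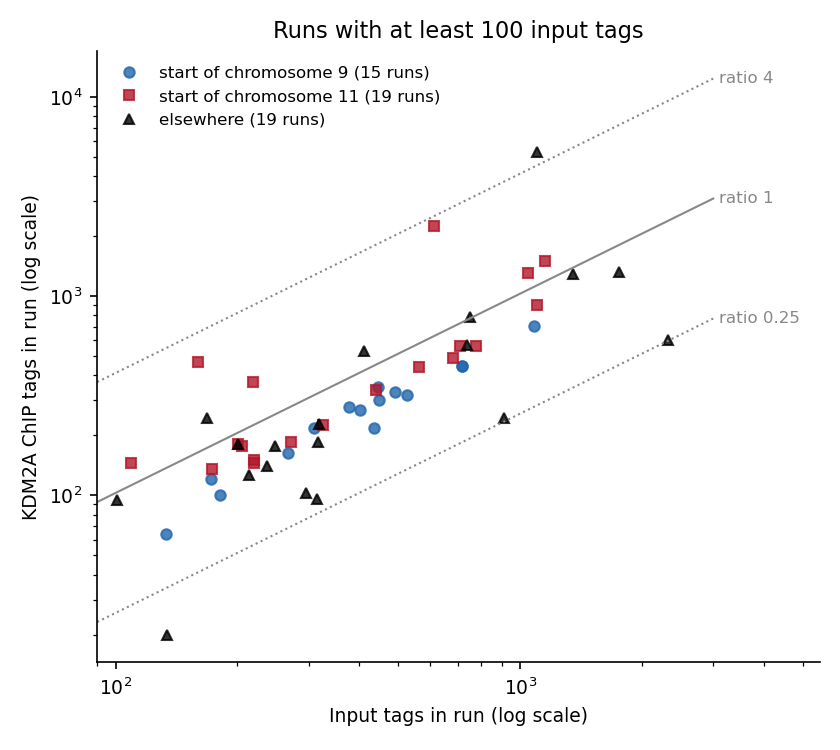
KDM2A tags (vertical axis, log scale) against input tags (horizontal axis, log scale) in the 53 runs with at least 100 input tags, with symbols for the place of the run. Lines mark ratios of KDM2A to scaled input of 4, 1 and 0.25, and most runs lie a little below the line of 1, with the run on chromosome 17 above the line of 4 and a few runs near or below the line of 0.25.

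The start of chromosome 11 held the largest group. From chr11:3022251-3100000, 268 bins in 26 runs held 9504 input tags and 10777 KDM2A tags. The mean levels were 35.3 times the input mean and 38.7 times the KDM2A mean, and the ratio was 1.10 (1.07 to 1.13). It was 1.02 (0.986 to 1.05) with 1 tag per position and strand, so that the pooled excess of KDM2A did not hold in that count. With all tags, the excess rested on the adjacent bins chr11:3093001-3093250 and chr11:3093251-3093500, which held 751 and 689 KDM2A tags. Without them the pooled KDM2A tags would lie below scaled input. KDM2A varied more along the group than input. Over the 270 chosen bins of the 400 bins in the first 100 kb, input ranged from 11 to 90 tags with a median of 33.5, while KDM2A ranged from 4 to 751 tags with a median of 28.5. The ratio of single bins ran from 0.223 to 14.9 with a median of 0.786. It was below 1 in 180 bins and 1 or more in 90, of which 15 were at 2 or more. The other 130 bins of this stretch had a median of 1 input tag, and 50 of them had 0.

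Of the 5 longest runs of the genome, 4 lay in this group, and they differed from each other in the ratio. The run at chr11:3030751-3038000, of 29 bins, held 1152 input and 1492 KDM2A tags, a ratio of 1.26 (1.17 to 1.36). The run at chr11:3052001-3059250, also of 29 bins, held 1100 input and 897 KDM2A tags, a ratio of 0.793 (0.726 to 0.866). These runs had nearly the same input and intervals of the ratio that do not overlap. The run at chr11:3040501-3047250, of 27 bins, had 1045 input and 1298 KDM2A tags and a ratio of 1.21 (1.11 to 1.31). The run at chr11:3080751-3086250, of 22 bins, had 778 and 563 tags and a ratio of 0.703 (0.631 to 0.784). With 1 tag per position and strand the 4 ratios were 1.26, 0.808, 1.21 and 0.699, in the same order.

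Of the 19 runs at the start of chromosome 11 with at least 100 input tags, 11 had an interval of the ratio wholly below 1 and 6 wholly above. With input scaled by 100 kb windows, a factor of 0.787, each of these 11 intervals would extend above 1. Of the 5 highest ratios among the 53 runs with at least 100 input tags, 3 were here. The run at chr11:3049501-3050500 held 160 input and 469 KDM2A tags, a ratio of 2.85 (2.38 to 3.41), and 2.63 with 1 tag per position and strand. Next to it, the run at chr11:3050751-3051750 held 219 and 369 tags, a ratio of 1.64 (1.39 to 1.94), and 1.47 in the other count. The third is the run of 17 bins at chr11:3091001-3095250, with 613 input and 2246 KDM2A tags and a ratio of 3.56 (3.26 to 3.89). Its input ranged from 18 to 84 tags per bin with a median of 31, and its KDM2A tags from 8 to 751 with a median of 43, so that 11 of its 17 bins were above a ratio of 1 and 6 below.

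The KDM2A tags of that run were concentrated in 2 adjacent bins. The bin chr11:3093001-3093250 held 84 input and 751 KDM2A tags, a ratio of 8.69, and the bin chr11:3093251-3093500 held 45 and 689 tags, a ratio of 14.9. With 1 tag per position and strand they held 58 and 344 tags, and 35 and 351 tags. The bins on both sides, with 39 and 59 input tags, had 154 and 174 KDM2A tags. The excess was thus concentrated in 4 bins of a run whose input was raised throughout. Over the run, the ratio fell to 2.28 (2.06 to 2.53) with 1 tag per position and strand, where the KDM2A library had 1.63 tags per occupied position.

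**Figure D4:**
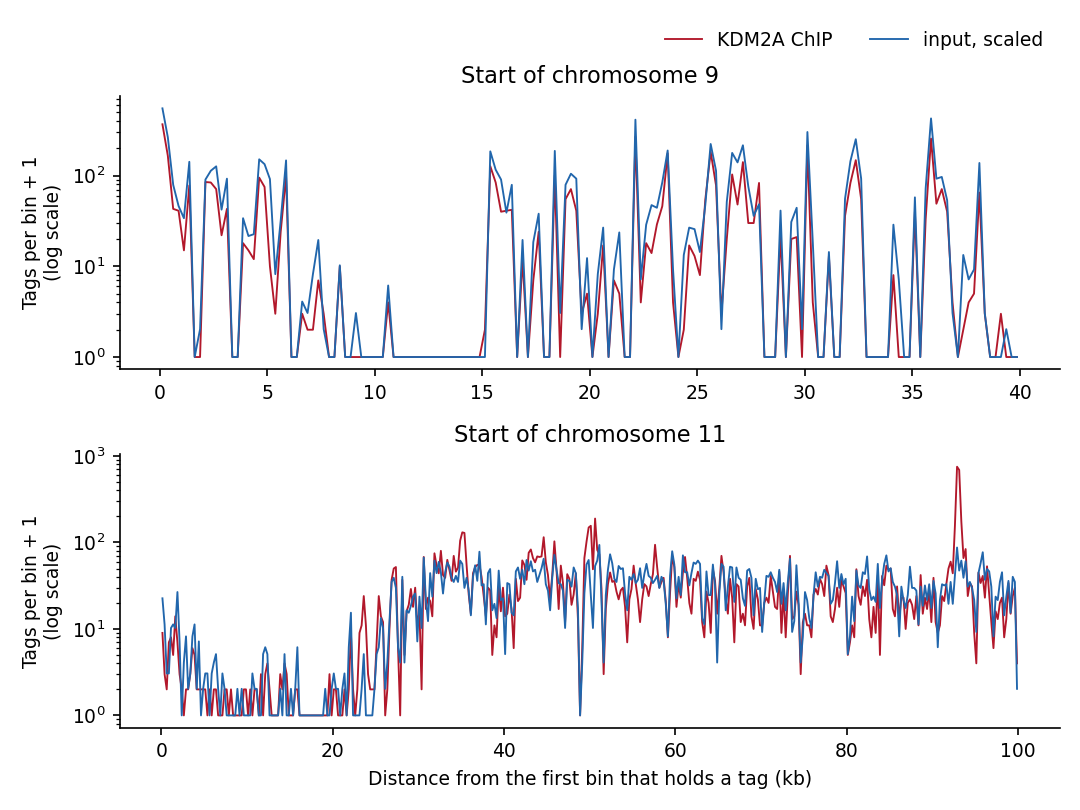
KDM2A tags and scaled input tags per 250 bp bin, plus 1, on a log scale against the distance in kb from the first bin with a tag, for the first 40 kb of chromosome 9 and the first 100 kb of chromosome 11. Both libraries rise and fall together in separate blocks on chromosome 9, with KDM2A mostly below input, and on chromosome 11 input stays at a similar level from about 30 kb on while KDM2A has a few narrow peaks, the highest at 751 tags.

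The start of chromosome 9 had a different form. In chr9:3000001-3038250, 74 bins in 27 runs held 7063 input tags and 4511 KDM2A tags, 95.1 and 58.7 times the respective means, with a ratio of 0.621 (0.598 to 0.644). Over the first 40 kb, input in the 74 chosen bins ranged from 11 to 535 tags with a median of 71, and KDM2A from 1 to 367 with a median of 40. The ratio was below 1 in 71 of the 74 bins, with a median of 0.588 and a highest value of 1.73. The other 86 bins of this stretch had a median of 0 input tags, and 63 of them held none, so that high bins alternated with empty ones. The ratio was 0.645 (0.609 to 0.683) with 1 tag per position and strand. Its 15 runs with at least 100 input tags had ratios from 0.468 to 0.762, all below 1, whereas the 19 such runs at the start of chromosome 11 spanned 0.645 to 3.56.

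The highest input of all was on chromosome 2. In chr2:98502251-98507500, 14 bins in 4 runs held 4163 input and 3395 KDM2A tags, 296 and 234 times the respective means. The highest bin had 921 input tags. The ratio was 0.793 (0.758 to 0.829), and 0.815 (0.751 to 0.884) with 1 tag per position and strand. The 4 runs had ratios of 0.729, 0.747, 0.694 and 0.923. A pair of adjacent bins at chr9:35112751-35113250 was similarly high, with 751 input and 789 KDM2A tags and a ratio of 1.02 (0.924 to 1.13). This level was reached within 500 bp, at 374 times the input mean and 380 times the KDM2A mean.

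Among the runs with at least 100 input tags, the highest ratio was on chromosome 17. Some runs with few input tags had higher ratios, with wide intervals. At chr17:39980001-39985750, 23 adjacent bins held 1098 input and 5276 KDM2A tags, 47.6 and 221 times the respective means. The ratio was 4.67 (4.38 to 4.98), and 3.71 (3.44 to 4.002) with 1 tag per position and strand. KDM2A exceeded scaled input in each of the 23 bins, with ratios from 1.56 to 8.38 and a median of 4.33. Input ranged from 11 to 92 tags per bin with a median of 49, and KDM2A from 40 to 424 with a median of 251. Both libraries were lowest in the same stretch about 4 kb from the start of the run, where KDM2A fell to 40 tags and the ratio to 1.56. Unlike the narrow peak on chromosome 11, the excess covered the whole run. The tag level of both libraries fell at the edges of the run, where the 40 bins within 5 kb held only 23 input and 52 KDM2A tags in all. In these few tags KDM2A was still above input, with 1.3 against 0.575 tags per bin.

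At the other end of the 53 runs were 5 in which KDM2A was far below scaled input. The largest, chr1:24618251-24623000, had 19 bins with 2321 input and 602 KDM2A tags, 122 and 30.5 times the respective means, and a ratio of 0.252 (0.230 to 0.276). Input ranged from 16 to 197 tags per bin with a median of 126, and KDM2A from 5 to 58 with a median of 27. No bin was above a ratio of 1, and the highest was 0.469. The run at chr2:22444001-22446250 had 9 bins with 911 and 244 tags and a ratio of 0.260 (0.226 to 0.300), with single bins between 0.171 and 0.372. Both ended sharply too, with 28 and 41 input tags in the 40 bins around them.

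The other 3 of these runs were shorter. The run at chr10:95540001-95540750 held 134 input and 20 KDM2A tags, a ratio of 0.145 (0.0911 to 0.231), the lowest of the 53. The run at chr4:79648501-79650500 held 314 and 96 tags, with 0.297 (0.237 to 0.373), and that at chr13:85266251-85267250 held 296 and 103 tags, with 0.338 (0.270 to 0.423). With 1 tag per position and strand the 5 ratios were 0.262, 0.276, 0.153, 0.315 and 0.357, each slightly higher. The next run in order had 0.468, so that a gap separated the 5 lowest from the other 48. Averaged over each run, even the lowest ratios came with a raised KDM2A level, from 6.42 to 30.5 times the KDM2A mean. The lowest of these levels, on chromosome 10, rested mostly on 1 bin with 15 KDM2A tags, and another of its 3 bins held 0.

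**Figure D5:**
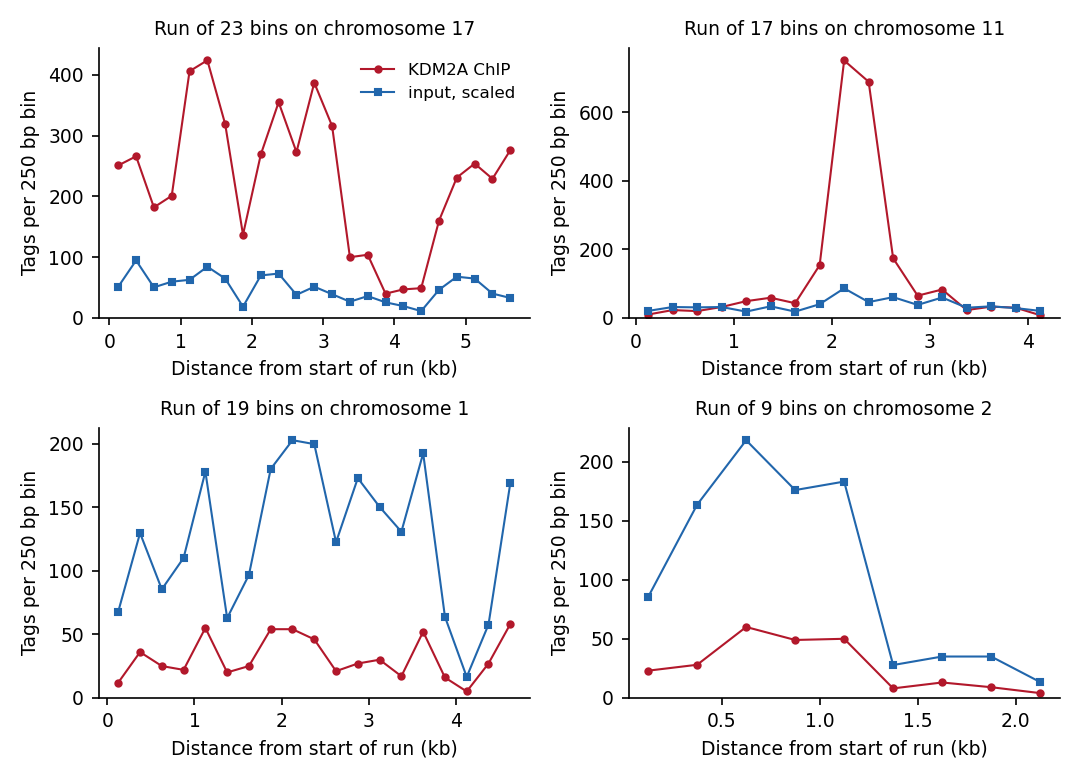
KDM2A tags and scaled input tags per 250 bp bin against the distance from the start of the run in kb, for the 2 runs with the highest ratio among those with at least 100 input tags (chromosomes 17 and 11) and the 2 low-ratio runs with the most tags (chromosomes 1 and 2). KDM2A lies above input in all 23 bins on chromosome 17, in a peak of up to 751 tags on chromosome 11, and below input in every bin on chromosomes 1 and 2.

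The remaining groups among the 15 with the most input tags lay between these. On chromosome 8, chr8:19920501-19986000 was the group with the most runs, 35 runs with 47 bins over 65.5 kb, 823 input and 531 KDM2A tags and a ratio of 0.627 (0.562 to 0.699). At chr15:74915751-74917500, 7 bins held 410 and 530 tags, a ratio of 1.26 (1.10 to 1.43) that became 1.06 (0.894 to 1.249) with 1 tag per position and strand. At chr4:79648501-79651000, the low-ratio run was joined by 1 more bin, giving 365 and 124 tags and a ratio of 0.330 (0.269 to 0.405). Of these 3, the ratio on chromosome 15 alone was above 1.

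The run at chr4:70039001-70039500 held 317 and 185 tags, a ratio of 0.567 (0.473 to 0.680), and 0.752 (0.574 to 0.985) in the other count. The run at chr12:3109751-3110250 held 247 and 177 tags, with 0.697 (0.574 to 0.845). Groups of several runs on chromosomes 1 and 17 had ratios close to this. They were chr1:87487501-87522250, with 266 and 212 tags and a ratio of 0.775 (0.647 to 0.928), and chr17:13733501-13746000, with 259 and 218 tags and a ratio of 0.818 (0.683 to 0.979). The fifth of the runs with the highest ratio, chr12:98299501-98300000, held 168 and 244 tags, and its ratio of 1.41 (1.16 to 1.72) became 1.17 (0.915 to 1.5002) with 1 tag per position and strand, an interval that includes 1.

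At the level of single positions, 51 of the 53 runs were placed among those with many tags at few positions or those with few tags at many positions, a division made after the values were seen. The other 2, on chromosomes 12 and 15, had 1.58 and 1.69 input tags per position and were placed in neither. In 24 runs the input library had at least 2 tags per occupied position, with a median of 2.90 and a highest value of 4.45. They comprised all 15 runs at the start of chromosome 9 and 9 runs elsewhere, among them all 4 at chr2:98502251-98507500. In these runs, 36.4% to 76.5% of the positions occupied in the input library were occupied in the KDM2A library as well. In 27 runs it had under 1.5 tags per position. They comprised all 19 runs at the start of chromosome 11 and 8 elsewhere, including the run on chromosome 17 and all 5 of low ratio. Here the share of input positions found in the KDM2A library was 3.68% to 46.1%, with a median of 8.44%.

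This sharing depends on how densely the KDM2A tags lay. Divided by the share of all positions that were occupied in the KDM2A library, the shared positions were 2.86 to 13.9 times as frequent as that density in the 24 runs, with a median of 6.30, and 1.08 to 4.76 times in the 27 runs, with a median of 1.55. The start of chromosome 9 as a whole had 51.8% of its input positions, and 65.5% of its KDM2A positions, in both libraries. The run on chromosome 17 had 46.1% of its input positions and 10.1% of its KDM2A positions in both, in a run where 32.1% of all positions held a KDM2A tag. Over all chosen bins the shared share was 12.5% of input positions, where 1.66% of positions held a KDM2A tag, and in the other bins it was 0.350%, where 0.197% did. Which positions of a sequence a read can be placed on is the same for both libraries, and its part in these values was not tested.

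The counts per position ended at 9 tags in the input library and at 7 in the KDM2A library. Of the 147 input positions with 9 tags in the autosomes, 143 (97.3%) were in the chosen bins, as were 155 of the 164 KDM2A positions with 7 tags (94.5%). All 15 runs at the start of chromosome 9 and 8 runs elsewhere held an input position with 9 tags, and none at the start of chromosome 11 did. A KDM2A position with 7 tags was held by 25 of the 53 runs. Of these, 4 held no input position with 9 tags, among them the run on chromosome 17 and the run at chr11:3091001-3095250. If limits on tags per position were set before the files were made, the levels of these 27 runs are minimum values and their ratios may be altered as well, in a direction that was not tested. Over all chosen bins, 51.1% of the input tags were on the plus strand. Along the 10 groups longer than 2 kb that were examined, tags on the same strand were correlated at lags of 40 to 1000 bp. This correlation, a description across positions, was at most 0.171. Between tags on opposite strands it was highest at the start of chromosome 9, with 0.346 in input and 0.369 in KDM2A, both at a distance of 50 bp. Counts were sparse, and a regular spacing was not tested.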

How the data were processed

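The authors deposited 1 table for each library, made from aligned reads, with unnormalized counts of tags by chromosome, strand and position. The submitters' processing notes name Bowtie and mm9. The version and settings, and any limit on tags per position, are not given in the sources used here. From these counts, tags were moved by 50 bp and summed in 250 bp bins of all 10 kb blocks with a tag of either library, with Python 3.11.15, numpy 2.4.6 and pandas 2.3.3, and drawn with matplotlib 3.10.9. Scripts were tested on simulated data. Input was scaled by total tags, and intervals are 95% Wilson intervals of the KDM2A share of tags. PCR copies are not independent molecules.

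The bins and rules were chosen with earlier results of these data known. Regions were named by rule: the 15 groups with the most input tags, the 5 longest runs, and the 5 highest and 5 lowest ratios among runs with at least 100 input tags. Alternatives were 1 tag per position and strand, no movement, 500 bp bins, 20 times the mean, a mean over all chromosomes, scaling by 100 kb windows and choice on 1 strand. The gene annotation given is of another build and was not used.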

Additional observations from a re-analysis of the deposited data

Results flagged for a closer look

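Chromosomes X and Y were outside the comparison and also held bins above the limit set on chromosomes 1 to 19. On chromosome X, 101 of 613880 bins (0.0165%), in 70 runs, held 2085 input and 1637 KDM2A tags, a ratio of 0.763 (0.715 to 0.814). On chromosome Y, 221 of 9520 bins (2.32%), in 55 runs, held 6954 input and 4387 KDM2A tags, a ratio of 0.613 (0.590 to 0.637), and these bins held 70.5% of the input tags of that chromosome. The run of chromosome Y with the most input tags, chrY:2779501-2783000, had 879 input and 517 KDM2A tags and a ratio of 0.572 (0.513 to 0.637). The last tag of chromosome Y in the files lies at position 2902553, so these values describe the part of the chromosome up to there. No comparison with the autosomes was tested.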

How the results depend on the processing

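No paired analysis was possible because each group has 1 library, and there was no replicate to leave out. The values with all tags were 3576 bins in 3129 runs, 0.700% of input tags, a ratio of 0.591, 624 bins at 10 times the KDM2A mean, 34 runs at a ratio of 2 or more, 2624 at 0.5 or less and 15.66% of the bins on the chromosome with the most. Of 54 values under the alternatives, 41 moved by more than their interval or by over 1.5 times and 13 did not. The ratio ranged from 0.472 to 0.937 and so stayed below 1 in all of them. Every alternative chose bins by input, which favours low ratios, so nothing is read from this.

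With 1 tag per position and strand there were 1933 bins in 1476 runs, 0.387% of input tags, a ratio of 0.706, 1089 runs at 0.5 or less and 20.54% of the bins on chromosome 11. For the same bins the ratio was 0.641. With 500 bp bins there were 390 bins in 151 runs, 0.342% of input tags, a ratio of 0.930, 285 bins at 10 times the KDM2A mean, 6 and 58 runs at the upper and lower ratio and 38.72% on chromosome 11. At 20 times the mean there were 439 bins in 154 runs, 0.305%, a ratio of 0.937, 411 bins at 10 times the KDM2A mean, 8 and 29 runs and 50.57%. With the mean over all chromosomes, which lowered the limit to 9.64 and so let in bins of 10 tags, there were 7201 bins in 6711 runs, 1.08%, a ratio of 0.472 and 5861 runs at 0.5 or less, and chromosome 8 then had the most bins, 14.85%. Without movement of tags the bins held 0.638% of input tags and the ratio was 0.618. With input scaled by 100 kb windows the ratio was 0.772 and 56 runs were at 2 or more. With bins chosen on 1 strand and read on the other it was 0.889 and 0.891.

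3 alternatives were chosen after seeing the data. With 10 times the mean of each chromosome there were 4827 runs, 0.853%, a ratio of 0.511 and 10.97% of the bins on chromosome 3, which then had the most. The mean of chromosome 3 was 0.850 tags per bin, which lowered its limit and let in bins of 9 and 10 tags. Its chosen bins thus went from 104 to 577. Without the first 100 kb of chromosomes 9 and 11, the bins held 0.526% of input tags and the ratio was 0.490. Without the 5 lowest and 5 highest runs it was 0.496. The cause of these changes was not tested, beyond what each setting counts.

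The number of bins rests on a mean of about 1 tag per bin, so that 1 tag more or less at the limit changes it by over 1.5 times. The ends of the longer runs, and with them their tags and ratios, depend on the limit as well.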

Other observations

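Some groups held many runs but few tags. Of the 12 groups with 5 runs or more, chr1:90116251-90164500 had 15 runs over 48.25 kb, with 192 input and 102 KDM2A tags, a ratio of 0.516 (0.406 to 0.656) and no bin above 14 input tags. The group at chr4:146794251-146808500 had 7 runs with 120 and 64 tags and a ratio of 0.518 (0.383 to 0.701). Others had ratios closer to 1. The group at chr2:27352501-27357750, 5 runs with 13 bins, held 225 and 212 tags, a ratio of 0.916 (0.759 to 1.10), and that at chr5:33071501-33082000 held 92 and 87 tags, a ratio of 0.919 (0.686 to 1.23), and for both the interval includes 1. The group at chr4:3007751-3018250, near the first tag of its chromosome, held 163 and 99 tags, a ratio of 0.590 (0.460 to 0.757). These groups were selected on input, as were all others, and their ratios are given as values alone.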
